A study of Drosophila melanogaster with 3 samples.

Results

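The nuclear genes for the proteins of the mitochondrial ribosome were examined for binding of CG3281, a C2H2 zinc finger protein of Drosophila melanogaster. They were taken as the protein-coding genes of the Ensembl annotation whose symbols begin with mRpL or mRpS and a number, which gave 73 of 13945 protein-coding genes, 47 for the large subunit and 26 for the small one. Chromatin immunoprecipitation and sequencing (ChIP-seq) had been done with an antibody against GFP, after sonication, on whole embryos, aged 0 to 24 h and of mixed sex, from a transgenic line that stably expresses CG3281 with GFP at its C-terminus. There were 3 biological replicates of this 1 group, each with a list of enriched regions, besides a list from the pooled replicates and a reproducible set of 6565 peaks filtered by the irreproducible discovery rate. Every sample carried the fusion protein, and controls entered the authors' region calling but are not analysed here, so no untagged line or second condition stands beside the values. Whole embryos mix all tissues, and the lists give neither read counts nor depth.

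Mitochondria translate the few proteins encoded by their own genome on ribosomes that differ from those of the cytosol. All the proteins of these ribosomes are encoded in the nucleus, made in the cytosol and imported, and the products are membrane subunits of the respiratory chain and the ATP synthase. In the compact fly genome many housekeeping genes stand back to back with a neighbour, so that a short stretch between the transcription start sites (TSSs) serves as the promoter of both. A peak in such a stretch lies close to a pair of genes, and ChIP-seq does not say which of them, if either, responds to it.

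A gene was counted as bound when the summit of a reproducible peak lay within 500 bp of any of its TSSs. By this count 40 of the 73 mitochondrial ribosomal protein genes were bound (54.8%, exact 95% interval 42.7% to 66.5%), against 24.8% of all protein-coding genes. When each peak was given only to the gene whose TSS was nearest its summit, 14 of the 73 kept a peak (19.2%, exact 95% interval 10.9% to 30.1%), against 19.3% of all protein-coding genes, so the share of mitochondrial ribosomal protein genes was then at the background. Among bound genes of other kinds 2673 of 3416 kept a peak under the nearest-TSS rule (78.2%), against 14 of 40 here (35.0%). Most of the bound ribosomal protein genes have a divergent neighbour, as described further on, and among bound genes with one the strongest peak was nearest the gene's own TSS in 58.8% of other genes and in 13 of 39 here (33.3%, exact 95% interval 19.1% to 50.2%). The other 26 summits lay nearer the TSS of the gene on the other side of a shared promoter. These intervals cover counting error over genes only.

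For the large subunit 25 of 47 genes were bound (53.2%) and 7 kept a peak under the nearest-TSS rule (14.9%, exact 95% interval 6.20% to 28.3%). For the small subunit 15 of 26 were bound (57.7%) and 7 kept one (26.9%, exact 95% interval 11.6% to 47.8%). The intervals of the subunits overlapped widely, and the difference between them was not tested. The pooled signal, the authors' value per region, had a median of 338.9 over the bound large subunit genes and 366.1 over the bound small subunit genes, and their ranges overlapped (206.4 to 6828 and 204.8 to 4079).

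**Figure D1:**
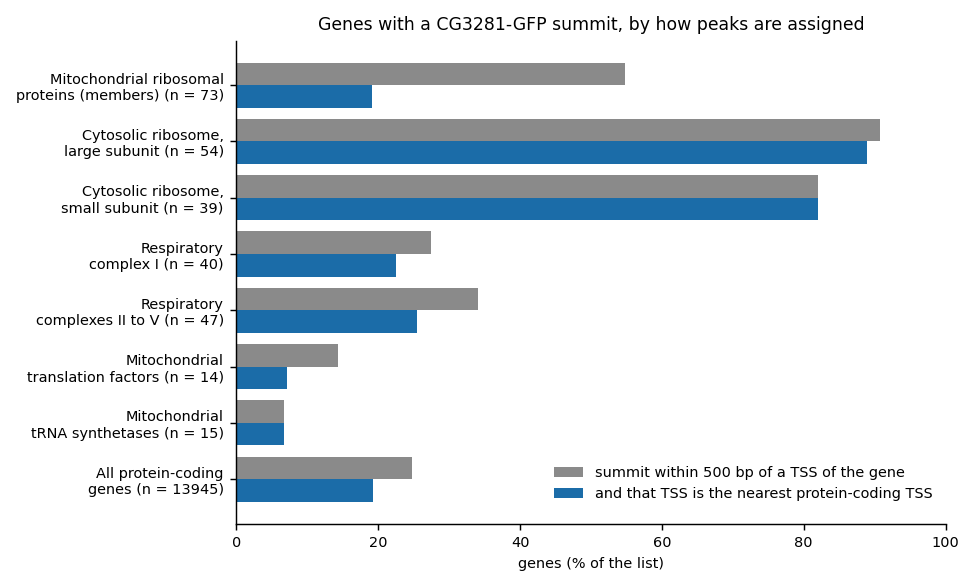
Share of genes with a CG3281-GFP summit in each gene list, in percent of the list. Grey bars count all genes bound by the 500 bp window, and blue bars only genes whose own TSS is the nearest one. Mitochondrial ribosomal protein genes go from 54.8% to 19.2%, while the cytosolic lists stay near their first value.

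Genes of the cytosolic ribosome, which makes all other cell proteins, kept nearly all of their peaks. Of 54 genes listed by symbol for the large subunit of the cytosolic ribosome, duplicates included, 49 were bound and 48 kept a peak under the nearest-TSS rule. The strongest in this list, which was drawn by symbol and not by function, was RpL7 at a pooled signal of 2016. The only bound gene in it that lost its peak was RpLP0-like, with 14-3-3zeta as its neighbour. Of 39 genes for the small subunit 32 were bound and all 32 kept a peak. Divergent neighbours were common there too, at 63.0% of the large and 56.4% of the small subunit genes. The summits lay at other places: their median distance from the TSS was -11 bp for bound cytosolic large subunit genes and -2 bp for small subunit genes, but -142 bp for the mitochondrial ones.

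Other mitochondrial gene lists are given here beside the 24.8% of all protein-coding genes. Neither tko nor bonsai, which encode mitochondrial small subunit proteins under other names, had a summit in the window. Only ArgRS-m of 15 mitochondrial aminoacyl-tRNA synthetase genes was bound (6.67%), at a pooled signal of 224.0. Among 14 mitochondrial translation factors and related genes GatA and mRF1 were bound (14.3%), and among 10 genes of mitochondrial transcription and DNA maintenance mTerf5 and mtSSB (20%). Subunit genes of respiratory complex I were bound in 11 of 40 cases (27.5%) and 9 kept a peak under the nearest-TSS rule. For complexes II to V 16 of 47 were bound (34.0%) and 12 kept one, led by ATPsynO, an ATP synthase subunit, at a pooled signal of 4575.

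A divergent partner, defined as a protein-coding gene on the opposite strand with its TSS within 1000 bp upstream, was annotated for 58 of the 73 mitochondrial ribosomal protein genes (79.5%) and for 36.0% of other genes. Of the 58 with a partner, 39 were bound (67.2%), while 40.3% of other paired genes were. Without a partner 1 of 15 was bound (6.67%, exact 95% interval 0.169% to 31.9%), against 15.8% of other genes without one. This single gene was mRpL19. The share that kept a peak under the nearest-TSS rule was 22.4% among those with a partner and 25.6% among other genes with a partner, which is within the exact 95% interval of the former, 12.5% to 35.3%.

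The stretch between the paired TSSs had a median length of 279 bp for the bound genes, with quartiles of 98 and 399 bp, and of 395 bp for the 19 unbound genes with a partner, with quartiles of 47.5 and 463 bp that enclose those of the bound ones. The share bound was 68% (17 of 25) at gaps up to 250 bp and 71.4% (20 of 28) at wider gaps up to 500 bp. At still wider gaps it was 40%, on few genes (2 of 5). For other genes with a partner the shares over the same gaps were 40.4%, 48.5% and 28.0%, so they too were lowest at the widest gaps. For 38 of the 40 genes the summit was shared, as the 500 bp window of another protein-coding gene took it in too. Of other bound genes 51.2% (1749 of 3416) shared theirs in this way. That share counts genes and not peaks, so a summit shared by several of them entered once for each. Each of the 40 genes had 1 peak of its own, and no peak was counted for a pair of mitochondrial ribosomal protein genes. In 27 of the 38 shared cases the summit fell between the paired TSSs, upstream of both, although at mRpL53 it also lay in an intron of the partner. In 8 it lay inside the partner, past the partner's TSS, and in 3, mRpS11, mRpL48 and mRpL23, at or past the TSS of the ribosomal protein gene. The distances to the paired TSSs differed by at most 25 bp in 4 of the 38, so the nearest-TSS rule decided those cases by little. In 26 of the 38 they differed by at most 100 bp, so the split by nearest TSS rests on small differences in many cases.

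**Figure D2:**
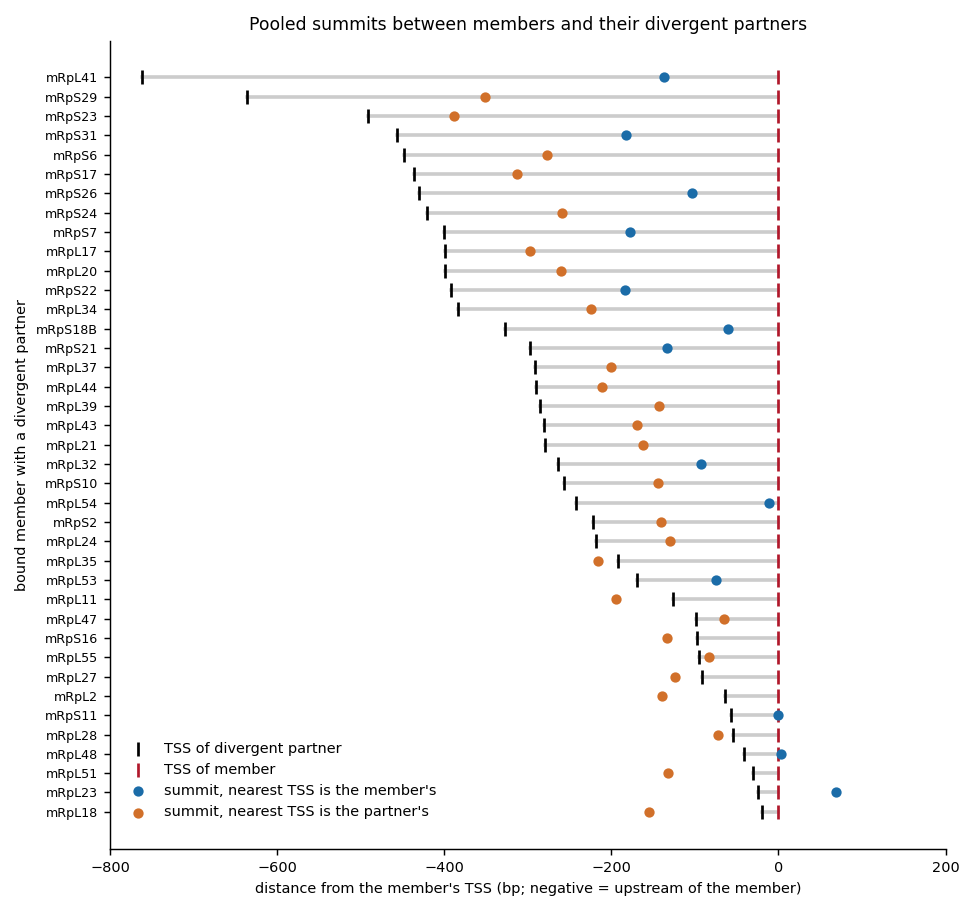
Position of the pooled summit (dots) relative to the TSS of each bound mitochondrial ribosomal protein gene (red ticks at 0) and the TSS of its divergent partner (black ticks), in bp, for the 39 genes with a partner. For mRpL23 the summit is measured from its TSS nearest the summit and the partner from its outermost TSS. Orange dots lie nearest the partner and blue dots nearest the ribosomal protein gene; with wide gaps the summits lie between the ticks, and with the narrowest gaps most lie beyond one of them.

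Summits lay upstream of the ribosomal protein gene in 37 of 40 cases (92.5%), against 80.2% for other bound genes. The distance ranged from -388 bp at mRpS23 to 69 bp at mRpL23. For the 14 genes whose own TSS was nearest the median was -98 bp. For the other 26 it was -166 bp, while the same summits lay at a median signed distance of -89.5 bp (range -286 to 135 bp) from the nearest neighbouring TSS. That these 26 lay nearer the neighbour follows from how they were split off. By annotation 28 of the 40 summits were intergenic, 11 in a 5' UTR and 1, at mRpL53, in an intron of AGO1. No summit fell between that of mRpS23 and the limit of 500 bp: just inside the limit were mRpS23 at -388, mRpS29 at -351 and mRpS17 at -313 bp, and the nearest summits outside it were at mRpL13 (1449 bp), mRpL22 (-1505 bp) and mRpL12 (-1919 bp).

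The peaks of 6 genes are shown by sequence, as strong examples of summits that lie between the paired TSSs. The stretch between the TSSs is given in full for mRpS10 (chr3R:15229409-15229664, plus strand), mRpS2 (chr2L:4850420-4850640, minus strand), mRpL24 (chr2L:4945362-4945578, minus strand) and mRpL21 (chr3L:19255062-19255339, minus strand). For mRpS23 (chr2L:13835410-13835510, minus strand) and mRpL20 (chr3L:13018077-13018177, minus strand), whose stretches are longer, 50 bases to either side of the summit are given. Each reads 5' to 3' towards the ribosomal protein gene, on dm6 as held by RefSeq, and capitals mark the 21 bases centred on the summit.
mRpS10 and Art3: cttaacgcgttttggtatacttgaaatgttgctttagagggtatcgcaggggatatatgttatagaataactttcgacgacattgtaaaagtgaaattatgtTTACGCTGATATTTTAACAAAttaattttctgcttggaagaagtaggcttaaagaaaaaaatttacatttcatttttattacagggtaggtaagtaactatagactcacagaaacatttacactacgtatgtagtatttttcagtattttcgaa
mRpS2 and Mon1: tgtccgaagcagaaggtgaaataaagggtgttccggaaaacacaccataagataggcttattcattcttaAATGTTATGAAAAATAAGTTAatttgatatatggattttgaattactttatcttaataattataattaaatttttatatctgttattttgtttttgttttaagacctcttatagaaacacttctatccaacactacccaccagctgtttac
mRpL24 and betaggt-I: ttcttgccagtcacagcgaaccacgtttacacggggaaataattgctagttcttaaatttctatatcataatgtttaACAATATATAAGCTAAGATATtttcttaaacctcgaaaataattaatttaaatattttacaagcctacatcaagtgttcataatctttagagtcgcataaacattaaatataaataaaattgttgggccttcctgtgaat
mRpL21 and rept: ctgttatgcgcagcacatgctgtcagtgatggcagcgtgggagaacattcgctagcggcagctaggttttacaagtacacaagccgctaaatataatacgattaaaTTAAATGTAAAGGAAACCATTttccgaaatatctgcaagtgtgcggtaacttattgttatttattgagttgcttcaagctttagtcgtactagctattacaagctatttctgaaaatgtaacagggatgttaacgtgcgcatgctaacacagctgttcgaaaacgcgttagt
mRpS23 and CenG1A: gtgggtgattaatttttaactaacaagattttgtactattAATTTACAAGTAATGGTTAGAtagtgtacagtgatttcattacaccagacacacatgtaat
mRpL20 and Icmt: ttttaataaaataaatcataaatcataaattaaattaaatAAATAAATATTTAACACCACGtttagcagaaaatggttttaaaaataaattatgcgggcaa

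In these stretches A and T made up 69.9% of the bases for mRpS10, 71.9% for mRpS2, 71.4% for mRpL24 and 59.7% for mRpL21. The windows held 71.3% at mRpS23 and 82.2% at mRpL20. The capitals fall left of the middle in all 4 full stretches, which is the side of the partner gene. Near the right-hand end, next to the TSS of the ribosomal protein gene, the mRpS2 and mRpL21 stretches hold the letters cagctg, an E-box.

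Of the 40 peaks the strongest stood at the genes for mRpL43, mRpL41, mRpS10 and mRpS23. All 4 were among the 66 strongest peaks of the reproducible set. They were 10% of the bound members (exact interval 2.79% to 23.7%), against 1.85% of all bound genes. The excess was limited to the very top. Among the strongest 10% of peaks the shares were 17.5% (7 of 40) and 16.4%. Among the strongest 50% they were 52.5% (21 of 40) and 61.4%. The median pooled signal of the 40 was 353.2 (quartiles 279.4 and 497.8), against 410.6 for all bound genes (quartiles 273.8 and 718.9), so the lower quartiles were close and the upper ones apart. In what follows a replicate's value is the signal of its region spanning the pooled summit, divided by the median signal of that replicate's list.

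At mRpL43, a large subunit protein without a bacterial counterpart, the ratio was 69.3, 58.5 and 50.01 in replicates 1, 2 and 3 (59.3 ± 9.65, SD, n = 3). Its region ranked 1, 7 and 5 in the lists, and its summit lay nearer CG30183. At mRpL41, also a large subunit protein of mitochondria alone, the ratio was 44.0, 24.1 and 36.0 (34.7 ± 10.03, SD, n = 3). Replicate 2 was the lowest for this gene. The summit of mRpL41 lay -137 bp from its own TSS, and its partner CG8079, 762 bp away, was out of reach of the window, so this is the strongest of the 40 peaks with no other protein-coding TSS within 500 bp of its summit.

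For mRpS10, the counterpart of bacterial S10 in the head of the small subunit, the ratio was 39.1, 39.1 and 29.2 (35.8 ± 5.70, SD, n = 3). The partner Art3, an arginine methyltransferase, had the summit at -113 bp from its TSS, against -144 bp for mRpS10. For mRpS23, a small subunit protein without a bacterial counterpart, the ratio was 39.7, 30.9 and 31.6 (34.1 ± 4.91, SD, n = 3). Here the neighbour CenG1A, an ARF GTPase-activating protein, was much nearer, at -104 bp against -388 bp. The values of mRpL41, mRpS10 and mRpS23 overlapped across the replicates, and all 3 lay below every value of mRpL43.

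The fifth was mRpL23, the counterpart of the bacterial protein at the exit of the peptide tunnel, at 20.6, 19.9 and 17.5 (19.3 ± 1.64, SD, n = 3). It was the 1 strong case with the summit downstream of the TSS. The summit lay 69 bp from the nearest of its 3 TSSs, within its own 5' UTR. CG9004 starts 24 bp upstream of another of these TSSs, the outermost. Next came mRpS2, at 12.3, 10.9 and 13.7 (12.3 ± 1.41, SD, n = 3), beside Mon1, part of the exchange factor for the late endosomal GTPase Rab7. The ratio at mRpL24 was 11.1, 13.1 and 12.4 (12.2 ± 1.02, SD, n = 3), beside betaggt-I, the beta subunit of a geranylgeranyl transferase. These 2 genes could not be ordered, since their replicate values overlapped.

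At mRpL21 the ratio was 7.81, 7.96 and 5.82 (7.20 ± 1.20, SD, n = 3), and its neighbour rept encodes the chromatin remodelling ATPase reptin. At mRpL20 it was 6.30, 5.95 and 6.92 (6.39 ± 0.489, SD, n = 3), next to Icmt, which methylates prenylated proteins. Below these the values flattened out. The ratio was 3.64, 5.29 and 4.81 at mRpS7, which lies back to back with the cell cycle kinase gene Cdk1 and kept its peak under the nearest-TSS rule at -178 against -222 bp. It was 3.57, 5.36 and 3.31 at mRpS22, which kept its peak over CG5003, and 3.24, 5.02 and 3.65 at mRpL44, whose peak was nearer Snr1, a subunit of the Brahma remodelling complex. Replicate 2 was the highest in each of these last 3 genes.

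**Figure D3:**
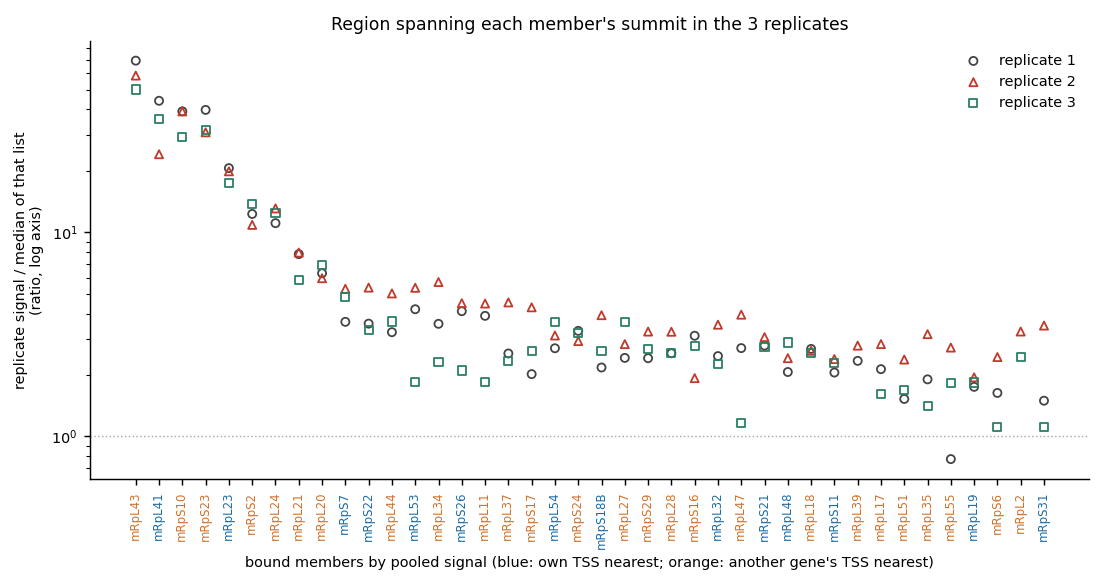
Signal of the region spanning each bound gene's summit in replicates 1 (circles), 2 (triangles) and 3 (squares), as a ratio to the median of that replicate's list on a log axis, with genes in order of pooled signal. Names in blue kept their peak under the nearest-TSS rule. All values of the first 9 genes lie above those of the rest, at mRpL21 and mRpL20 by little, and triangles lie on top for most of the weaker ones.

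The 28 weaker peaks had ratios from 0.775, at mRpL55 in replicate 1, to 5.70, at mRpL34 in replicate 2. Over the 38 peaks with a region in all 3 replicates the ratio was highest in replicate 2 for 25 (65.8%, exact 95% interval 48.6% to 80.4%), in replicate 1 for 8 and in replicate 3 for 5. The same count was 30.6% for replicate 2 over all reproducible peaks and 40.5% over the peaks of other bound genes. Among the 26 such peaks below the strongest 12 it was 20. At mRpL53, for example, the ratio was 4.20, 5.35 and 1.85, and at mRpL47 2.71, 3.95 and 1.16. Technical and biological differences between the replicate embryo collections cannot be told apart from these lists.

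The count of bound genes moved with the replicate accordingly. Among the 6565 strongest regions of each replicate alone, 34, 44 and 29 of the 73 genes had a summit in the window for replicates 1, 2 and 3 (48.9% ± 10.5, SD, n = 3). All protein-coding genes moved much less, at 25.1% ± 1.15. Under the nearest-TSS rule 12, 20 and 10 kept a peak (19.2% ± 7.25), around the 19.4% ± 0.702 of all genes. In each replicate the bound share was above that of all genes, and under the nearest-TSS rule it was above in replicate 2 (27.4% against 20.2%) and below in replicates 1 (16.4% against 19.1%) and 3 (13.7% against 18.9%). Replicate 2 held all 40 bound genes and also mRpL10, mRpL16, mRpS25 and mRpS30.

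Of the 40 peaks 28 were among the strongest regions of all 3 replicates, 7 of 2 and 5 of 1 alone. Those 5 were mRpL51, mRpL55, mRpL19, mRpS6 and mRpS31. At mRpL19, the bound gene without a partner, the ratio was 1.75, 1.95 and 1.84 (1.84 ± 0.0991, SD, n = 3), which is even across the replicates and just under their cut in 2 of them. mRpL39 had no region at its summit in replicate 3, and mRpL2, a protein of the peptidyl transferase centre, had none in replicate 1. The weakest bound gene was mRpS31 at a pooled signal of 204.8, close to the lower limit of the reproducible set at 198.3. Just under that limit were mRpS25 at 169.4 and mRpL10 at 168.1.

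The genes next to the bound ones do varied work. Among the 26 summits nearer a neighbour, besides those named, were the pairs of mRpL34 with Dg, the gene for dystroglycan, mRpL11 with HtrA2, a mitochondrial protease, and mRpS17 with Nop60B, a pseudouridine synthase. Likewise mRpS24 stood beside Apc2, mRpL27 beside CG15435, mRpS29 beside the DNA repair gene rad50, mRpL28 beside FBgn0010607, mRpS16 beside cg, and mRpL47 beside CG8176 and Kdm3, which start at the same distance from the summit. Besides HtrA2, neighbours with mitochondrial roles of their own included Taz (tafazzin, in cardiolipin remodelling) beside mRpL18 and Mitofilin (cristae structure) beside mRpL35. ATPsynD (an ATP synthase subunit), beside mRpL55, was another. The remaining ones were Prosbeta2, a proteasome subunit, beside mRpL39, Tudor-SN beside mRpL17, Uba4 beside mRpL51, Cip4 beside mRpS6 and FoxK, a forkhead factor, beside mRpL2.

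Among the 14 genes that kept their peak, mRpL41, mRpL23, mRpS7, mRpS22 and mRpL19 have been described. In the others the partner lay farther from the summit: CG13698 for mRpS26, CG15653 for mRpL54, Kua for mRpS18B, qless, of coenzyme Q synthesis, for mRpL32, the chaperone gene Droj2 for mRpS21, CG17660 for mRpL48, Ns1 (a nucleostemin) for mRpS11 and hzg for mRpS31. At mRpL53 the TSS is shared with CG33155 on the same strand, so the peak went to both, while the divergent partner was AGO1, the microRNA effector. Pooled signal did not separate these 14 genes (median 354.8) from the 26 others (352.5).

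Counts differed by chromosome arm, a difference that was not tested. On X none of the 11 was bound, which allows a share of up to 27.3% (3 genes of 11, exact 95% upper limit 28.5%), although 9 of the 11 have a divergent partner. On the autosomal arms 9 of 12 were bound on 2L, 9 of 12 on 2R, 9 of 17 on 3L and 13 of 21 on 3R. For all protein-coding genes the X share was 22.6%, close to 24.3% on 2L, 24.9% on 2R, 25.8% on 3L and 26.0% on 3R, and for all genes with a divergent partner it was 33.0% on X against 40.0% to 44.2% on the 4 large autosomal arms. The 11 are mRpL3, mRpL14, mRpL16, mRpL22, mRpL30, mRpL33, mRpL38, mRpL49, mRpS14, mRpS25 and mRpS30. Some had regions in the replicate lists. At mRpL16 one lay in the window in all 3 replicates, at ratios of 1.56, 1.97 and 1.60 (ranks 8377, 5871 and 8250). At mRpS25 the ratios were 1.62, 2.02 and 0.600 (ranks 8004, 5693 and 26380). mRpS30 had one in replicate 2 only, at 1.83 (rank 6502). In replicate 2 these 3 regions were among its 6565 strongest, so that list alone counted the 3 genes as bound.

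The other unbound genes with a partner were mRpL1, mRpL4, mRpL15, mRpL42, mRpL46, mRpL50, mRpL52, mRpS18A, mRpS18C and mRpS28. Those without one, apart from the X chromosome, were mRpL9, mRpL10, mRpL12, mRpL13, mRpL36, mRpL40, mRpL45, mRpS5, mRpS9, mRpS33, mRpS34 and mRpS35. Of all 33 unbound genes 12 had a region of the pooled list in the window, at signals from 52.7 to 169.4, and 8 had none in any replicate's list. With every region of the pooled list counted, 52 of 73 genes had a summit in the window (71.2%), against 47.5% of all protein-coding genes.

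The windows 50 bp to either side of the 40 summits were rich in A and T, at 69.3% ± 10.7 (SD over peaks), against 49.7% in flanks 500 bp away. Over all 6565 peaks the values were 65.3% and 57.0%, and over promoter peaks of other genes 64.2% and 55.1%, so the contrast between summit and flank was larger at mitochondrial ribosomal protein genes. Composition did not separate the bound from the unbound genes. In a window centred 142 bp upstream of the TSS, A and T made up 70.5% ± 9.54 at the 40 bound genes, 70.2% ± 8.31 at the 33 unbound ones and 69.9% ± 8.69 at the 11 on X. Among the 33, the 19 with a partner had 67.2% ± 8.57 and the 14 without one 74.2% ± 6.16. Bound genes at large had 66.6% ± 10.8 and unbound genes at large 63.2% ± 11.0.

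**Figure D4:**
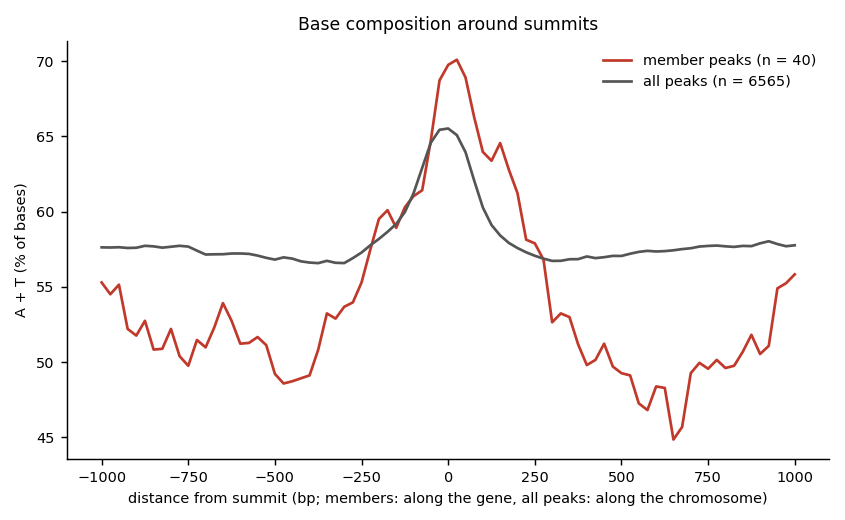
Share of A and T, in percent of bases within 25 bp of each position, against distance from the summit in bp, for the 40 peaks of mitochondrial ribosomal protein genes (red) and all 6565 peaks (grey). Both lines are high at the summit, at 69.8% and 65.5%, and the red line falls lower at 500 bp to either side, to about 49.2% and 49.3%.

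Letters of known promoter elements were searched on both strands. In the promoters, 250 bases before to 50 after the TSS, the E-box CAGCTG was found at 40 of the 73 genes (54.8%) against 17.7% of all promoters of the same length. The bound genes held it in 25 of 40 cases and the unbound ones in 15 of 33. It sat near the TSS, at a median of 5 bp (quartiles -31 and 19), and not at the summits: in bound genes the nearest E-box was a median of 120 bp away from the summit, and 2 of 40 summit windows held one (5% against 4.40% of all peaks). The DNA replication-related element TATCGATA, which contains the BEAF letters CGATA, was found in 15 of 73 promoters (20.5% against 9.36%) and in 0 of 40 summit windows, against 1.20% of all peaks. A window with 0 of 40 allows a share of up to 8.81%.

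At the summits TATAAA was found in 11 of 40 windows (27.5%, against 21.9% of all peaks and 10.8% of their flanks). The word of 8 letters with the largest difference in share between summits and flanks, in percentage points, at the 653 strongest peaks away from these genes, ATTTAAAA, was found in 5 of 40 (12.5%, against 5.64% of all peaks). A gapped word, CANCCCTG with any base at N, was picked after its share at the summits had been seen. It stood in 4 of 40 windows, those of mRpL53, mRpL54, mRpS16 and mRpL47 (10%, against 2.32% of all peaks and 0.381% of flanks). Its forms CAACCCTG and CAGCCCTG ranked 5 and 7 by ratio of summits to flanks at the 653 strongest peaks away from these genes. Those peaks include most of the 66 strongest, so its higher share there, 18.2%, was no separate result. None of the words searched was found in more than 11 of the 40 windows. The part of the mRpL47 window outside annotated exons (chr3R:9515923-9516006, minus strand) is given. It is the case where the gapped word, in capitals, lies at the summit, its centre 3 bp away.
mRpL47 and CG8176: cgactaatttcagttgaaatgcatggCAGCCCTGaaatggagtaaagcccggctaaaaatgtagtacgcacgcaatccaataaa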

How the data were processed

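Peak lists of 3 ChIP-seq replicates, a pooled list and a reproducible set, all on dm6, were used. Per the labels, the authors called each list against controls and derived the set by irreproducible discovery rate. The aligner, the caller and its cut-offs were not given in the sources used here. Signal is the authors' deposited value, on a scale of its own in each list, so replicate values were divided by the list median. The deposited −log10 q-value was not used for ranking. Lists on dm3 were not used. Depth is unknown.

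Gene models came from Ensembl release 115 (13945 protein-coding genes, 19607 TSSs on 6 arms) and bases from RefSeq on the same assembly. Coordinates are 1-based. Ties for the nearest TSS counted for every tied gene. Replicates alone were compared on their 6565 strongest regions. Leaving out a replicate kept the reproducible peaks covered over at least 50% of their length by the strongest regions of both others. Intervals are exact (Clopper-Pearson, 95%). No test was run, since the design has 1 group and the genes were chosen with results known. Python 3.11.15, numpy 2.4.6, pandas 2.3.3, scipy 1.17.1 and matplotlib 3.10.9 were used, and the assignment code was tested on simulated summits. The members, gene lists, motifs and naming rule (every member named, replicate values for the 12 strongest and for mRpL19, up to 4 genes per other list) were chosen with earlier results of these data known. Alternatives were other windows, nearest-TSS and outermost-TSS assignment, other peak thresholds, other partner limits and each replicate left out. A single pair that the naming rule gives is not reported here.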

Additional observations from a re-analysis of the deposited data

How the results depend on the processing

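The number of bound genes, 40, was 33 with a TSS window of 250 bp (20% of all genes bound), 40 with 1000 bp (28.6%), 40 with interval overlap (26.5%) and 40 with outermost TSSs (22.2%). It moved to 14 with assignment to the nearest protein-coding TSS, also 14 with non-coding genes included, and to 21 with the stronger 3282 peaks (15.2% of all genes). Leaving out 1 replicate gave 28 to 34 bound genes, 11 to 12 that kept a peak under the nearest-TSS rule and 28 to 34 bound with a divergent partner; of all genes 18.1% to 18.7% were then bound and 13.9% to 14.5% kept a peak. Peaks were not called anew, so this filter could only remove genes. The same 28 genes were bound in all 3 cases, and these are the ones with a peak among the strongest regions of every replicate. The peak of mRpL19 was among the strongest regions of 1 replicate alone. It was therefore lost in each case by construction, which left no bound gene without a partner. The 14 genes that kept a peak became 8 with the stronger 3282 peaks. The median distance moved from -142 to -134 bp with the window of 250 bp (-143.5 to -141 bp over left-out replicates). The median pooled signal, 353.2, was 340.3 with that window and 375.97 to 389.0 over left-out replicates. The share with the leading word was 22.5% with windows of 100 bp, against 12.5%, and over all peaks 10.4% against 5.64%.

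Some alternatives were chosen after seeing the data. Counting the summit offset from 1 gave 15 genes that kept a peak, with mRpL39 added over Prosbeta2. Taking only the outermost TSS of each gene left 14, against 16.7% of all genes. A single annotated TSS was given for 91.8% of the 73 genes, 73.4% of other genes and 63.8% of the partners. No paired analysis was possible because there is 1 group. Limits are the lack of an untagged control, unknown depth, whole embryos and peak lists that hold 1 summit per region.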

Other observations

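In the other mitochondrial lists, too, some bound genes had a summit nearer a neighbour. The strongest were ND-MWFE, a complex I subunit, at a pooled signal of 767.6 and -138 bp with TppII as its divergent partner, ND-51, which binds NADH in complex I, at 650.2 and -125 bp with CG13994, and GatA, of the mitochondrial glutamyl-tRNA amidotransferase, at 586.9 and -97 bp with P5cr. Weaker ones were ATPsynCF6 at 417.5 with Sec13, COX5B at 346.5 with IFT52, COX5A at 283.8 with glo and SdhC at 205.2 with Tctp. A single peak was counted in 2 of the mitochondrial lists: the summit at -83 bp from mRpL55 was the one counted for ATPsynD, at a pooled signal of 212.8.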
